A study of Mus musculus with 3 samples.

Results

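The genes described here are 10 components of the Toll-like receptor complex and of its first signaling step in mouse liver, chosen by gene symbol from the 23361 genes of each FPKM table (fragments per kilobase of transcript, scaled to the number of mapped fragments). All 10 were found, and all 10 reached an FPKM of 1 in some sample. They are the receptors Tlr2 and Tlr4, the co-receptors and ligand-handling proteins Cd14, Ly96 and Lbp, and the adaptor and proximal signaling proteins Myd88, Irak2, Irak4, Traf6 and Tollip.

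Toll-like receptors recognize microbial products and molecules that leave injured cells. LPS-binding protein, the product of Lbp, is made mainly by hepatocytes and hands lipopolysaccharide to CD14, which passes it to MD-2 (encoded by Ly96) bound to TLR4. The engaged receptor recruits MYD88, which assembles the IRAK kinases and the ubiquitin ligase TRAF6, and this leads to activation of NF-kB. In the liver, Kupffer cells, sinusoidal endothelium, infiltrating leukocytes and hepatocytes all carry parts of this machinery.

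Each of the 3 libraries came from livers of C57BL/6J mice aged 8 to 10 weeks, with 1 library for the sham sample, 1 for the warm ischemia (WI) sample and 1 for the sample of ischemia followed by reperfusion (IR). All mice were fasted for 12 h and had a midline laparotomy under chloral hydrate. The sham mice had no occlusion and were sampled after 90 min. In the WI and IR mice the vessels and bile duct to the left and median lobes, about 70% of the liver, were clamped for 90 min, and the IR mice then had 120 min of reperfusion. There were 6 mice per group, and how many of them contributed to a library is not given in the sources used here.

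With 1 library per condition no test between conditions was possible, and no difference below has a replicate check in these libraries. Each value is therefore given with the 95% bounds of Cuffdiff, which come from its error model and do not measure the variation between mice. The paper also reports quantitative PCR of selected genes, with Myd88 among the primers listed. Those results were not used here, and whether they come from separate mice is not stated. The bounds of the 10 genes correspond to a coefficient of variation of 23.1% to 34.2%. They are not counting error alone, since they did not narrow steadily with level. In sham liver the coefficient was 23.2% for Tollip at 16.3 FPKM and 47.4% for the hepatocyte gene Ttr at 4241 FPKM. No sham sample matches the IR sample in time, so reperfusion and the later time after surgery cannot be told apart. The labels give male for all 3 samples, and the libraries differed in sex-linked genes. Xist, transcribed from the inactive X chromosome of females, had an FPKM of 18.9 in sham liver, 20.1 in WI and 1.29 in IR. The 4 Y-linked genes Ddx3y, Eif2s3y, Kdm5d and Uty were listed at 0 in sham liver, summed to 0.00849 in WI and summed to 23.7 in IR. By these genes the sham and WI libraries went against the male label and the IR library did not. A difference in sex between the libraries and the treatment cannot be told apart in any comparison with the IR sample. Of the 6 hepatocyte markers examined, Ttr, Apoa1, Apob, Cyp2e1 and Cps1 had an FPKM between 221.3 and 8799 in the 3 samples, and Alb was listed at 0 in all 3 with the Cuffdiff status for a locus with too many fragments. Fragment counts per gene were not given, and the depth behind a gene is therefore unknown. The paper gives read pairs per library, with the fewest uniquely aligned pairs and the lowest aligned share in IR. The commonest ratio among values under 0.05 FPKM, where a few fragments make up the value, was 1.11 between sham and WI and 0.793 between sham and IR, so that a fragment was worth most FPKM in IR.

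In the sham sample Lbp was the most abundant of the 10 genes and the receptors were the least abundant. Lbp, on chromosome 2 of mm10 (chr2:158306493-158332852), had an FPKM of 45.2 (95% bounds 23.4 to 67.1), which was exceeded by 5.52% of all genes. Tollip followed with 16.3, and Cd14 with 9.99. Myd88 stood at 7.48, Ly96 at 5.10, Irak2 at 4.91, Traf6 at 3.91 and Irak4 at 2.60. Tlr2 had 1.80 and Tlr4 1.46, and 40.8% of all genes had a higher FPKM than Tlr4. The bounds of every pair of neighbours in this order overlapped in sham liver. In the IR sample Cd14 stood first, with an FPKM exceeded by 3.23% of all genes, followed by Lbp and Myd88. In WI the bounds of Lbp lay above those of Tollip, the next gene, and all other neighbours in the WI and IR samples overlapped. Tlr4 stayed last in all 3 samples.

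**Figure D1:**
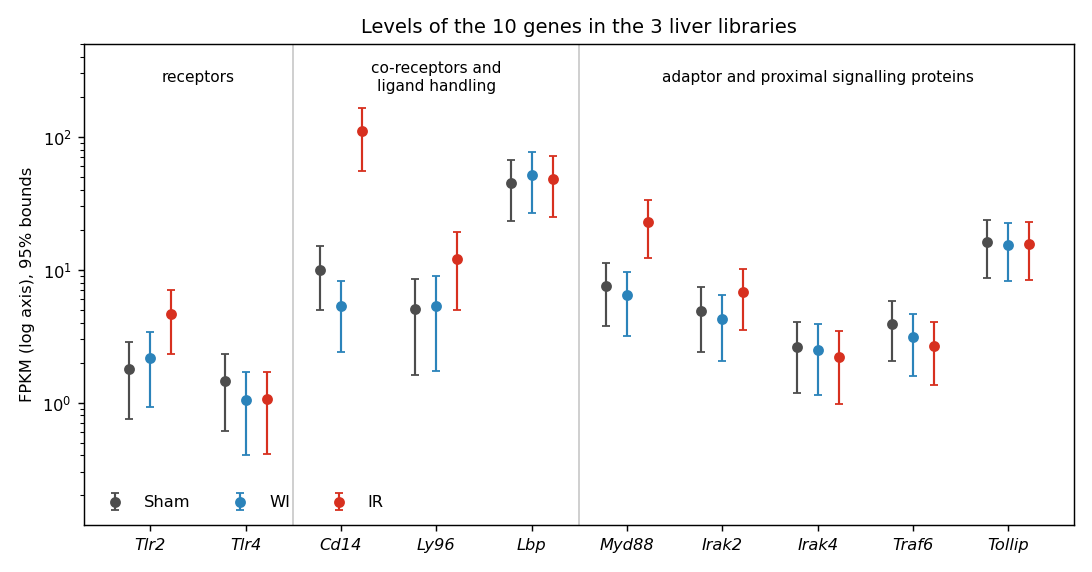
FPKM of the 10 genes on a log axis in the sham, WI and IR samples, with the 95% bounds of Cuffdiff as bars and 1 library per condition. Cd14 reached 110.0 in IR against 9.99 and 5.31 in the sham and WI samples, and Myd88 reached 22.8, while the bars of the other 8 genes overlapped in all 3 samples.

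The comparison of the WI sample with the sham sample addresses ischemia without reperfusion. None of the 10 genes differed 2-fold in FPKM + 1, the threshold used for a call, where 1.85% of the 10792 genes that reached an FPKM of 1 in some sample (the filtered genes) did so. Cd14 was the furthest from 0, at -0.80 on the scale of log2(FPKM + 1). Its bounds were 4.99 to 15.0 in sham liver and 2.40 to 8.22 in WI, and they overlapped. The other 9 genes lay between -0.27 for Tlr4 and 0.19 for Lbp. The 5 adaptor and signaling genes were all on the lower side, between -0.26 and -0.04, with a median of -0.18 against 0.02 over all filtered genes. The bounds of all 10 genes overlapped in this comparison, and 0.676% of all filtered genes had bounds apart, 0.195% higher and 0.482% lower in WI.

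Setting IR against WI addresses reperfusion after ischemia. Here 3 of the 10 genes rose at least 2-fold in FPKM + 1 (Cd14, Myd88 and Ly96), where 5.78% of all filtered genes did, and 0 fell, where 1.43% did (7.21% in either direction). The bounds were apart for Cd14 and Myd88, 2 of the 10 genes, against 3.22% of all filtered genes in that direction, 0.398% in the other and 3.61% in either. Against sham, 4 of the 10 genes were at least 2-fold higher (the same genes and Tlr2), where 5.35% of all filtered genes were, and 0 lower, where 2.15% were (7.5% in either direction). In that comparison 2 of the 10 genes had bounds apart, again Cd14 and Myd88, against 2.7% of all filtered genes in that direction, 1.12% in the other and 3.82% in either. The median change of the 10 genes was 0.31 from WI to IR and 0.25 from sham to IR, and over all filtered genes it was 0.03 and 0.05. Both comparisons use the same IR library, and the 10 genes were picked with earlier results of these data known.

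Scaling bears on these counts. The FPKM of the IR sample summed to 149.7% of the sham sum, and rescaling each sample to the same sum (TPM) moved the median change of all genes to -0.45 from WI to IR and -0.46 from sham to IR. On that scale Cd14 and Myd88 were called from WI to IR, and only Cd14 was called from sham to IR, where Myd88 stood at 0.98. Ly96 stood at 0.62 and Tlr2 at 0.65 from sham to IR on the TPM scale, below the threshold. Subtracting the shifted median largely undoes the rescaling, so the values it gives repeat the FPKM scale and are no further check. From sham to IR they were 3.28 for Cd14, 1.44 for Myd88, 1.08 for Ly96 and 1.11 for Tlr2. On the FPKM scale these genes stood at 3.34, 1.49, 1.10 and 1.01.

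**Figure D2:**
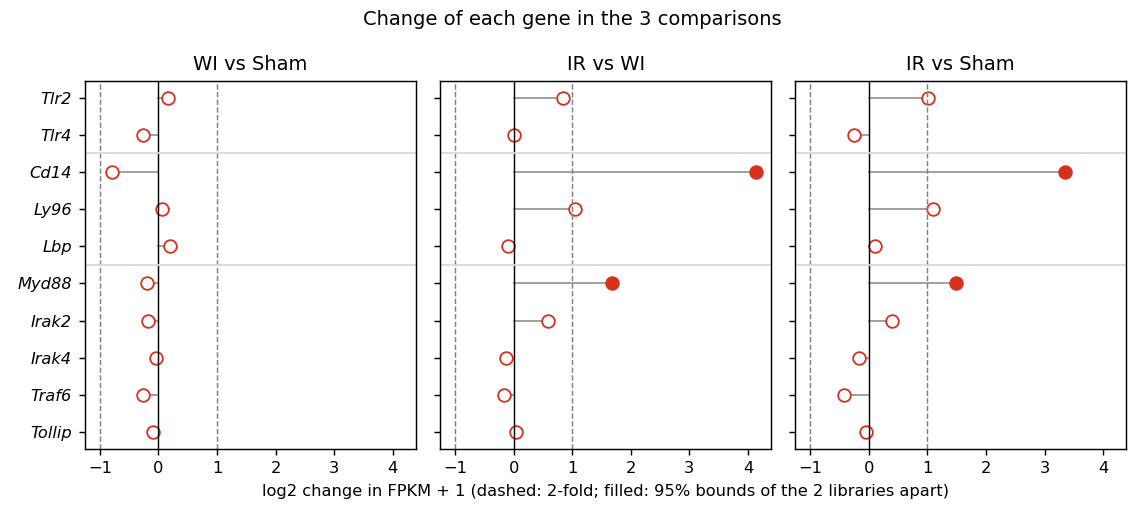
Change of each gene as log2 of the ratio of FPKM + 1 in the 3 comparisons, with dashed lines at 2-fold and filled points where the 95% bounds of both libraries lie apart. Filled points occur for Cd14 (4.14 and 3.34) and Myd88 (1.68 and 1.49), in the comparisons with the IR sample, and no point passes 2-fold between WI and sham.

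Among the co-receptors and ligand-handling proteins the 3 genes went separate ways. Cd14, on chromosome 18, encodes the lipid-anchored protein that binds lipopolysaccharide and also serves TLR2. Its FPKM was 9.99 in sham liver (4.99 to 15.0), 5.31 in WI (2.40 to 8.22) and 110.0 in IR (55.7 to 164). The IR sample stood far above the other samples. The ratio of FPKM + 1 was 17.6 from WI and 10.1 from sham. Even the facing bounds differed, the lower bound in IR being 6.78 times the upper bound in WI and 3.72 times that in sham liver. Of the 10792 filtered genes, 28 had a larger rise than Cd14 from WI to IR, and 45 from sham to IR.

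Ly96 lies on chromosome 1 (chr1:16688456-16709605) and encodes MD-2, the subunit of the TLR4 complex that holds the lipid. Its FPKM was 5.10 in sham liver (1.61 to 8.59), 5.34 in WI (1.72 to 8.97) and 12.1 in IR (4.97 to 19.2). Sham and WI were nearly equal and IR was higher, with bounds that overlapped those of both. The change was 1.05 from WI and 1.10 from sham, a little past the threshold. Lbp had 45.2, 51.9 (26.5 to 77.2) and 48.5 (24.9 to 72.0) in the sham, WI and IR samples. Its 3 values lay well within the bounds of one another, and relative to sham IR stood at 0.10 by FPKM and -0.48 by TPM.

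The receptors Tlr2 and Tlr4 differed from each other in IR. Tlr2, on chromosome 3 (chr3:83836272-83841608), encodes the receptor for bacterial lipoproteins, which pairs with TLR1 or TLR6. Its FPKM was 1.80 in sham liver (0.747 to 2.85), 2.15 in WI (0.928 to 3.37) and 4.65 in IR (2.31 to 6.98). The value in IR was the highest, but its bounds overlapped those of the others. The change from sham to IR, 1.01, was only just a call, and the change of 0.84 from WI to IR was not one. Of all filtered genes, 5.25% had a larger change than Tlr2 from sham to IR.

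Tlr4 lies on chromosome 4 (chr4:66827811-66842796) and encodes the receptor for lipopolysaccharide. Its FPKM was 1.46 in sham liver (0.616 to 2.31), 1.05 in WI (0.402 to 1.69) and 1.06 in IR (0.410 to 1.71). The WI and IR samples were alike and the sham sample was the highest, with bounds that overlapped throughout. The change was -0.27 from sham to WI and -0.26 from sham to IR, and from WI to IR it was 0.01 on the FPKM scale and -0.34 on the TPM scale.

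The promoter of Tlr2 is shown because it is the only one of 6 promoters searched here that held a match to the NF-kB consensus, the motif bound by the factor at the end of this pathway. The windows run from 250 bases before to 50 bases after the start site in RefSeq (GRCm38.p6) and were available for Tlr2, Myd88, Irak2, Irak4, Traf6 and Tollip. The stretches below are read 5′ to 3′ along the minus strand, with the motif in capitals and positions counted from 0 at the first transcribed base.
Tlr2 -173 to -164 (chr3:83841762-83841791): taggacacctGGGGAATTCCcacacggagc
Tlr2 -8 to 1 (chr3:83841597-83841626): ccctgacctgGGGACATCCCcttccctcac
A further match begins 1 base after the first and overlaps it. Over all 32851 promoter windows of the same length, 8.46% held at least 1 match on either strand. The AP-1 motif TGANTCA, searched on both strands and present in 7.81% of all windows, was in none of the 6. A match describes these letters and is not a measured binding site.

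Within a library, ratios between the genes do not depend on the scaling between samples. The ratio of Cd14 to Tlr4 was 6.83 in sham liver, 5.07 in WI and 103.9 in IR. The widest range that the bounds allow was 2.16 to 24.3 in sham liver, 1.42 to 20.5 in WI and 32.7 to 400.5 in IR, so the IR range lay above the others. Ly96 to Tlr4 was 3.49, 5.11 and 11.4 in the same order, with ranges that overlapped. Tlr2 to Tlr4 was 1.23, 2.05 and 4.39, also with overlapping ranges. The ratio of Lbp to Tlr4 was 30.9, 49.6 and 45.8. Cd14 to Lbp, the receiver of the ligand over the protein that delivers it, was 0.221 (0.0744 to 0.641), 0.102 (0.0310 to 0.310) and 2.27 (at lowest 0.774), and here too the IR range lay above both others.

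**Figure D3:**
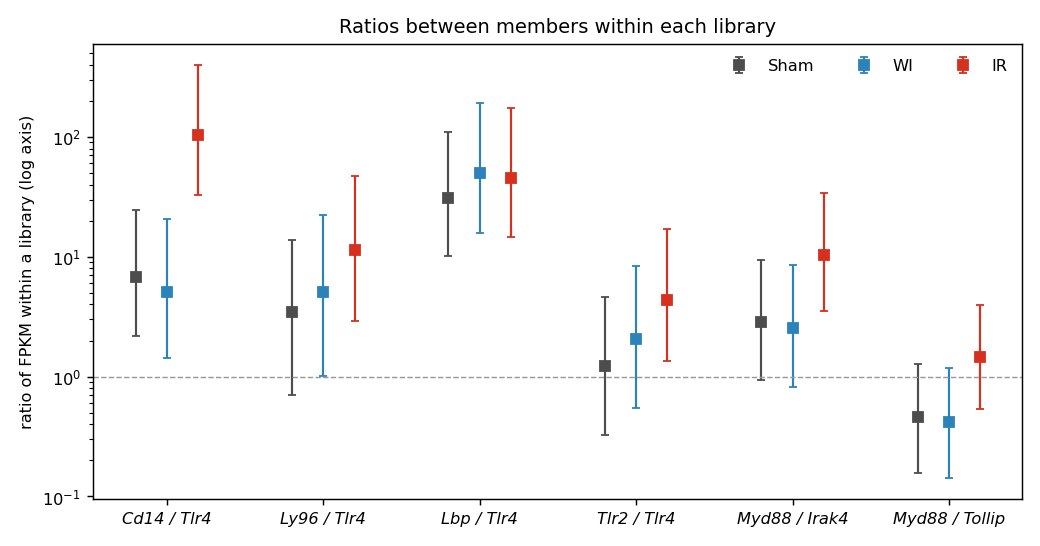
Ratio of the FPKM of gene pairs within each library on a log axis, with bars for the widest range that the 95% bounds of both genes allow. The ratio of Cd14 to Tlr4 is 103.9 in IR against 6.83 and 5.07, and it is the only one of the 6 plotted whose IR bar lies above both other bars.

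Among the adaptor and signaling proteins only Myd88 was called, and the 4 proteins around it were not. Myd88, on chromosome 9 (chr9:119335988-119340040), encodes the adaptor used by TLR2, TLR4 and the IL-1 receptor family. Its FPKM was 7.48 in sham liver (3.77 to 11.2), 6.40 in WI (3.17 to 9.64) and 22.8 in IR (12.2 to 33.3), and the IR bounds lay above both others. The gap was narrow, since the lower bound in IR was 1.27 times the upper bound in WI and 1.09 times that in sham. The FPKM ratio of IR to WI was 3.56 and that of IR to sham 3.05. In the order of changes, 253 filtered genes rose more than Myd88 from WI to IR.

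Irak2, on chromosome 6 (chr6:113638467-113695027), encodes a kinase-like protein that sustains signaling downstream of MYD88. Its FPKM was 4.91 in sham liver (2.41 to 7.41), 4.23 in WI (2.06 to 6.40) and 6.79 in IR (3.49 to 10.1). It was the highest in IR with overlapping bounds, and relative to sham it stood at 0.40 by FPKM and -0.10 by TPM. Irak4, on chromosome 15 (chr15:94543660-94568316), encodes the kinase that MYD88 binds first. Its FPKM was 2.60 (1.18 to 4.02), 2.51 (1.13 to 3.88) and 2.21 (0.975 to 3.45) in the sham, WI and IR samples. All its changes lay between -0.17 and -0.04 on the FPKM scale. By TPM it stood at -0.58 from WI to IR and -0.66 from sham to IR.

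Traf6 lies on chromosome 2 (chr2:101678440-101700974) and encodes the ubiquitin ligase that passes the signal on to the kinase TAK1. Its FPKM was 3.91 in sham liver (2.05 to 5.77), 3.10 in WI (1.59 to 4.61) and 2.68 in IR (1.35 to 4.01). It stood at -0.42 relative to sham after reperfusion by FPKM and -0.95 by TPM, the lowest of the 10 genes on both scales. Its bounds overlapped. Tollip, on chromosome 7 (chr7:141881585-141902406), encodes a protein that binds IRAK1 and restrains signaling. Its FPKM was 16.3 (8.71 to 23.8), 15.2 (8.17 to 22.3) and 15.7 (8.39 to 22.9), the narrowest spread of the 10 genes. From WI to IR it was at 0.04 on the FPKM scale and -0.49 on the TPM scale. The ratio of Myd88 to Tollip was 0.459 in sham liver, 0.420 in WI and 1.45 in IR, and that of Myd88 to Irak4 was 2.88, 2.55 and 10.3. The ranges from the bounds overlapped for both ratios.

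The paper names Myd88, c-Fos (encoded by Fos) and A20 (encoded by Tnfaip3) as targets of miR-125b-5p and miR-501-3p. It describes the changes of miR-501-3p and Fos as negatively correlated. Of these targets only Myd88 is among the 10 genes, and matches in Fos and Tnfaip3 are not given here. The link of miR-501-3p to Fos was therefore not tested. Levels of the microRNAs are not analysed here. The mature sequences of the microRNAs in RefSeq are shown, with the seed (bases 2 to 8) in capitals. Beside them are the stretches of 3′ untranslated regions of the 10 genes that match a seed perfectly.
mmu-miR-125b-5p: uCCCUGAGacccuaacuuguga
mmu-miR-501-3p: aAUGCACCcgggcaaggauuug
Myd88, bases 717 to 723 of the region, match to miR-125b-5p: tcatggtccctCTCAGGGtacaccccagg
Traf6, bases 1340 to 1346, match to miR-125b-5p: ggagtctagttCTCAGGGagccctacgac
Traf6, bases 3225 to 3231, match to miR-125b-5p: atgtcggcattCTCAGGGtaactgtcatt
The regions come from the GENCODE transcript with the longest coding part of each gene, and all 10 genes had one. Of the 10, Myd88 and Traf6 held a match for miR-125b-5p and none held one for miR-501-3p. Among 2800 genes with a region from 0.8 to 1.25 times as long as that of Myd88 (987 bases), 11.4% held a match for miR-125b-5p, and 31.4% of 958 genes with a region as long as that of Traf6 (4170 bases) did. Of both genes with a match, Myd88 was 1.49 higher from sham to IR on the log2 scale and Traf6 was at -0.42. A match describes these letters and not binding.

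**Figure D4:**
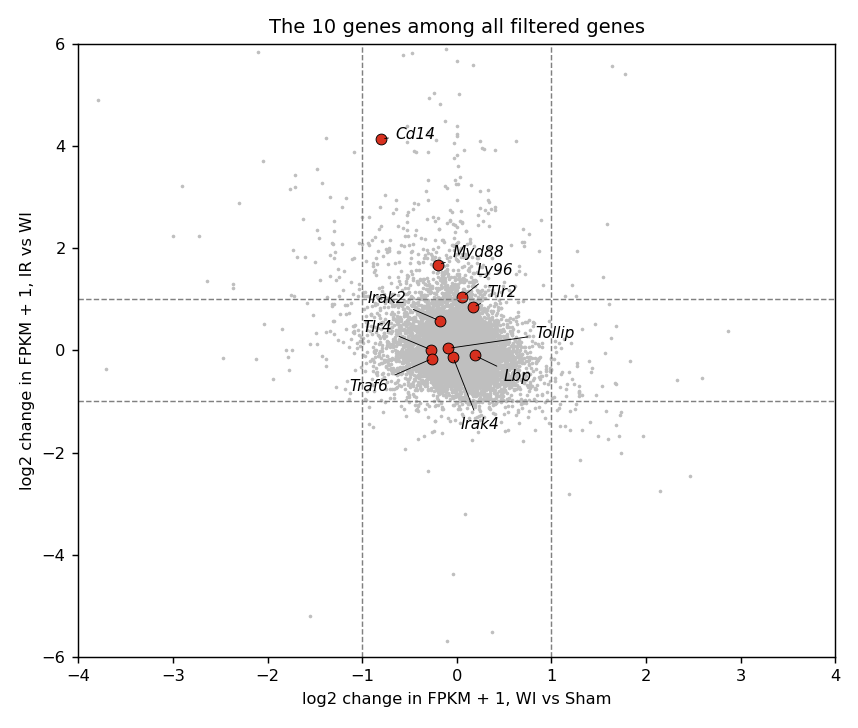
Change from WI to IR against change from sham to WI, both as log2 of the ratio of FPKM + 1, for 10776 filtered genes (grey) and the 10 named genes (red), with 16 genes outside the axes and dashed lines at 2-fold. The WI library enters both axes with opposite sign. Cd14 lies at -0.80 and 4.14, and 7 of the 10 genes lie inside the dashed lines on both axes.

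The genes closest in pattern were sought by the distance between the changes from sham to WI and from WI to IR, over 3 libraries, for each of the 4 genes that were called. For Cd14 they were Atf3, a stress-induced transcription factor (distance 0.281), S100a8, a calcium-binding protein of neutrophils (0.374), and Elovl3, a fatty acid elongase (0.378). S100a8 had an FPKM of 13.6, 9.17 and 211.7 in the sham, WI and IR samples, and Atf3 had 8.72, 5.76 and 114. For Myd88 they were Pde12 (0.047), the ribosome biogenesis gene Rrp12 (0.055) and the zinc transporter gene Slc39a14 (0.057). Tlr2 had Clk1, Cdkn2d and Tmem55b at 0.028 to 0.039, and Ly96 had Eif3j1, Haus8 and Wdfy1 at 0.022 to 0.041. With 3 samples many genes share such a course, so these names describe likeness in these libraries only.

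Other genes of the pathway were taken from a list of 57, of which 48 passed the filter. From sham to WI 0 of the 48 were higher 2-fold, against 0.751% of all filtered genes, and 1 was lower, against 1.1%. From WI to IR 8 were higher and 0 lower, where 5.78% and 1.43% of all filtered genes were, and from sham to IR 8 were higher and 2 lower, where 5.35% and 2.15% were. After rescaling to TPM the split from sham to IR became 5 higher and 11 lower of 50, where 2.72% and 13.4% of all genes passing the filter on that scale were. The split from WI to IR became 3 higher and 7 lower, where 3.28% and 10.1% were. The median change of the list was 0.05 from WI to IR and 0.10 from sham to IR.

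The genes called as higher on the FPKM scale belong to the NF-kB and IkB group and to the inhibitors. On the TPM scale only Tnfaip3, Tnip2 and Socs1 were called as higher from WI to IR. From sham to IR, Relb and Tnip1 joined them on that scale, and no other gene of the list did. Rela, the main transactivating subunit of NF-kB, had an FPKM of 10.7, 10.6 and 25.6 in the sham, WI and IR samples. Relb went from 1.17 in sham and 1.56 in WI to 4.71 in IR, with bounds apart from sham. Nfkb2 was called from sham to IR (1.10), Nfkbib in both comparisons (1.04 and 1.03) and Nfkbiz, an atypical IkB protein that acts in the nucleus, from WI to IR (1.25). The bounds of Rela, Nfkb2 and Nfkbib in IR overlapped those of both other samples. Nfkb1 was at 0.57 and Nfkbia at 0.54 from sham to IR and neither was called.

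Among the inhibitors, Tnfaip3, which encodes the ubiquitin-editing enzyme A20, had an FPKM of 1.45 in sham liver (0.599 to 2.30), 1.15 in WI (0.490 to 1.80) and 6.51 in IR (3.49 to 9.53). Tnip2, which encodes a partner of A20, had 1.53, 1.53 and 7.75. Socs1, a suppressor of cytokine signaling that also restrains this pathway, had 0.424, 0.400 and 4.49. It passed the filter only through the IR sample. With an FPKM of at least 1 required in all 3 samples, Socs1 dropped out. Then 7 of 42 genes of the list were higher from WI to IR, where 4.74% of all genes so filtered were. Tnip1 rose as well, by 1.32 from WI and 1.49 from sham. These 4 inhibitors had bounds in IR above those in sham, where 2.7% of all filtered genes did. Of the 7 inhibitors that passed the filter, the other 3 (Cyld, Sigirr and Rnf216) were between -0.44 and 0.20 from sham to IR. Tollip, the inhibitor among the 10 genes, stood at -0.05 in the same comparison.

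Further adaptors and IRAK kinases were not called in any comparison, where at most 7.5% of all filtered genes were. Tirap, which bridges TLR2 and TLR4 to MYD88, had an FPKM of 2.52 (1.19 to 3.85), 3.83 (1.78 to 5.88) and 5.32 (2.55 to 8.08) in the sham, WI and IR samples, and its change from sham to IR was 0.84. Ticam1, the adaptor of the branch that does not use MYD88, had 4.94, 3.51 and 3.80. Irak1 had 11.2, 12.4 and 11.9. Irak3, an inhibitory member of the family, had 0.722, 0.415 and 1.36 and passed the filter only through IR. Ticam2 and Sarm1 stayed below 0.21 FPKM in every sample and did not pass the filter.

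Tlr2 was the only receptor gene called as higher in IR. Of 12 other receptor and receptor-partner genes, 8 passed the filter. From sham to IR all 8 were on the lower side, from -1.42 for Cd180 to -0.15 for Tlr3. Over all filtered genes, 54.4% were on the higher side. The filter bears on this, since Tlr8 passed it only through the sham sample. Of the genes it removed, Tlr6 was at 0.27, Tlr1 at -0.12, Tlr11 at -0.20 and Tlr9 at -0.26. The median of the 12 without the filter was -0.40, against -0.87 with it. Cd180, which encodes an inhibitory relative of TLR4, had an FPKM of 2.39 (1.03 to 3.76), 1.52 (0.582 to 2.47) and 0.264 (0.0484 to 0.480), and its bounds in IR lay below those in both other samples. Ly86, its partner as MD-2 is the partner of TLR4, had 16.4, 10.3 and 7.12 and was called from sham to IR (-1.10). Tlr7, a receptor for single-stranded RNA, had 3.10, 1.01 and 1.29 and was the only gene of the list called between WI and sham, at -1.03 with overlapping bounds. Of the 16 genes of the ubiquitin and kinase relay 15 passed the filter and 0 were called in any comparison. Over all filtered genes 1.85% were called from sham to WI, 7.21% from WI to IR and 7.5% from sham to IR. With 15 genes, 0 is near these shares. Ikbke came closest to a call, at 0.80 from sham to WI.

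**Figure D5:**
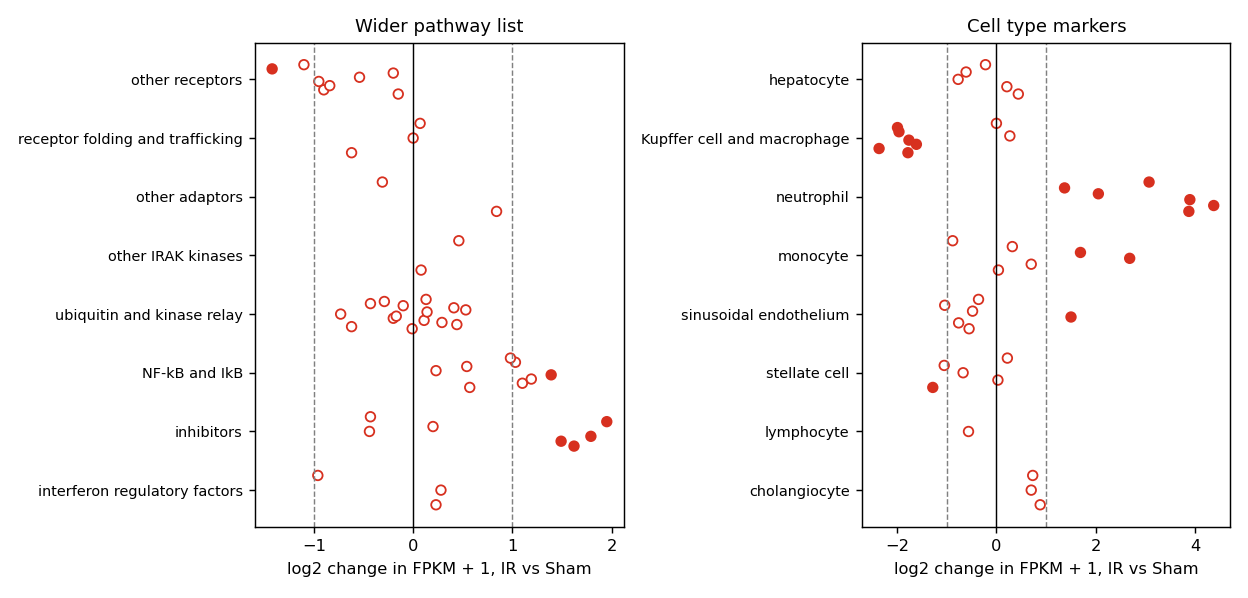
Change from sham to IR as log2 of the ratio of FPKM + 1 for the genes of the wider pathway list (left, by function) and for cell type markers (right) that passed the filter, with dashed lines at 2-fold and filled points where the 95% bounds lie apart. The filled points on the right side of the left panel are Relb and 4 inhibitors, and the right panel has 6 neutrophil markers between 1.37 and 4.37 and 6 Kupffer cell markers between -2.36 and -1.61.

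Markers of several cell types also differed between the 3 samples. In whole liver, fewer cells of a type and less RNA per cell cannot be told apart. Neutrophil markers summed to an FPKM of 25.6 in sham liver, 19.4 in WI and 468.9 in IR. Of 8 listed, 7 were in the tables, none of them at 0, and 6 were called as higher in IR in both comparisons. Over all filtered genes 5.78% were higher from WI to IR and 5.35% from sham to IR. The exception was Camp at 0.152, 0.0673 and 0.0953, and Cxcr2 and Mmp8 passed the filter only through IR. Neutrophils carry Cd14, Tlr2 and Myd88. The 8 Kupffer cell and macrophage markers summed to 497.1, 254.4 and 165.0. Of the 8, 6 were called as lower in IR than in sham (all but Marco and Cd68), where 2.15% of all filtered genes were. Cd14, Tlr4, Cd180 and Ly86 are carried by Kupffer cells and macrophages. The 6 monocyte markers summed to 182, 114 and 146, of which Lyz2 made up 131, 80.7 and 70.7. From sham to IR 5 of the 6 were on the higher side and 1, Lyz2, on the lower. Chil3 (0.327 in sham and 7.51 in IR) and F13a1 (0.0362 and 2.34) were higher in IR with bounds apart. Both passed the filter only through IR. Markers of sinusoidal endothelium summed to 126, 91.8 and 103, those of stellate cells to 47.8, 31.5 and 24.0, those of lymphocytes to 3.48, 2.37 and 1.22, and those of cholangiocytes to 54.0, 61.6 and 91.7. The part of any of these cell types in the values of the 10 genes was not tested.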

How the data were processed

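The samples are 3 mouse liver libraries, 1 each for sham, WI and IR. Per the labels and the methods, the authors mapped reads to mm10 with TopHat2 2.0.9 and computed FPKM with Cuffdiff of Cufflinks 2.0.2 at default parameters. The deposited tables hold the FPKM of 23361 genes with 95% bounds and a status, which was OK for the 10 genes in all samples. No other listed locus overlaps theirs.

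Changes are log2 ratios of FPKM + 1, which understates changes of low genes. The filter kept 10792 genes that reached an FPKM of 1 in some sample, and a call was a 2-fold difference. Whether bounds overlapped was recorded beside it. The code that makes the calls was tested on simulated data with large changes and little noise, which checks the code and says nothing of how reliable a call is with 1 library per condition. The 10 genes, the lists and the rules were chosen with earlier results of these data known. The genes named from the wider list are those called in any comparison and the other adaptors and IRAK kinases. Nfkb1, Nfkbia, Ikbke, Tlr1, Tlr3, Tlr6, Tlr8, Tlr9, Tlr11, Cyld, Sigirr and Rnf216 were added after their values were seen. For likeness, the 3 nearest genes were named. Adgre1 and Chil3 were matched by older symbols. RefSeq (GRCm38.p6) gave promoters and microRNAs, and GENCODE transcripts on NCBIM37, an older build used by symbol only, gave untranslated regions. No promoter of Cd14, Ly96, Lbp or Tlr4 was used. Python 3.11.15, numpy 2.4.6, pandas 2.3.3 and matplotlib 3.10.9 were used. The alternatives were other pseudocounts, filters, thresholds and scalings, calls by bounds and genes with status OK.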

Additional observations from a re-analysis of the deposited data

How the results depend on the processing

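Of 66 recomputed counts of called genes, 47 stayed within 1.5 times the main count. Each count adds both directions, so a turn of direction does not show in it. From WI to IR the wider list had 8 higher and 0 lower, and under TPM 3 higher and 7 lower, which is among the 47. The counts of the 10 genes (0 from sham to WI, 3 from WI to IR, 4 from sham to IR) became 1 from sham to WI at 1.5-fold, where Cd14 was lower. At 4-fold they became 1 from WI to IR and 1 from sham to IR, both Cd14. From sham to IR, calls by bounds gave 2 and TPM gave 1. For the wider list the count from sham to WI (1) became 3 with a pseudocount of 0.1, with one of 0.01 and with TPM, 5 at 1.5-fold, and 0 with FPKM of at least 5, at 4-fold and by bounds. From WI to IR (8) it became 15 at 1.5-fold, 0 at 4-fold and 5 by bounds. From sham to IR (10) it became 19 at 1.5-fold, 0 at 4-fold, 6 by bounds and 16 with TPM. Fewer calls at 4-fold and more at 1.5-fold follow from the threshold itself, and the cause of the other moves was not tested. Over all genes, TPM gave 324 higher and 1598 lower from sham to IR, against 577 and 232. All 228 recomputed changes of single genes stayed within the error given by the bounds, and 4 changes turned sign, all under TPM and none of a called gene. Another filter, or keeping only genes with status OK, leaves the change of a single gene as it was. Those among the 228 could therefore not move. The error given by the bounds is wide, so staying within it does not mean that a call held. Under TPM, Ly96 went from 1.05 to 0.59 from WI to IR and was no longer called. From sham to IR, Tlr2 went from 1.01 to 0.65 and Myd88 from 1.49 to 0.98 under TPM, also below the threshold. No paired analysis was possible because each condition has 1 library, and no replicate could be left out. The depth behind each gene is unknown.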

Other observations

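Within the marker lists some genes departed from the rest of their group. Lyve1, a hyaluronan receptor of sinusoidal and lymphatic endothelium, had FPKM values of 11.2, 2.73 and 33.4 in the sham, WI and IR libraries, with a change of -1.71 from sham to WI and 3.21 from WI to IR, while the other 5 endothelial markers were between -0.58 and -0.19 from sham to WI. Among macrophage markers, the scavenger receptor gene Marco had 20.9, 12.6 and 25.3, and Cd68 had 18.5, 12.3 and 18.5, while the Kupffer cell genes Clec4f (115, 65.3 and 32.7) and Vsig4 (67.8, 35.1 and 12.4) were lower at each step. These genes were chosen after their values were seen, each value comes from 1 library, and the differences between them were not tested.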
